A study of Macaca mulatta with 24 samples.

Results

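CYP1A1 and the other genes of the aryl hydrocarbon receptor axis were followed in jejunum of 24 young-adult male rhesus macaques, all but the controls exposed to total-body irradiation (TBI). The members were 8 genes chosen by name (CYP1A1, CYP1A2, CYP1B1, AHR, AHRR, ARNT, TIPARP and NQO1), each with all probes that the deposited normalized table lists under its symbol. Of these, 5 genes had a probe, out of 16094 symbols in the table, and they held 10 of the 43603 probes. CYP1A2, AHRR and ARNT had no probe under their symbol and were not analysed here. The set was proposed with the CYP1A1 fall of the 6.7-Gy day 4 group in view, so CYP1A1 levels in controls and in that group are a description without a test.

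Cobalt-60 gamma rays were given once over the whole body, at 7.4 Gy in one set of animals and 6.7 Gy in another, and RNA was made from whole gut wall of a short piece of jejunum. Each dose had 4 animals on day 4, 4 on day 7 and 2 on day 12. The same 4 sham-irradiated controls, labelled day 4, served both doses, so no control matches day 7 or day 12 in time. RNA was not pooled, and each one-color Agilent rhesus array held 1 animal. In whole tissue, fewer cells of a type and less RNA per cell cannot be told apart.

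AHR is a ligand-activated transcription factor that rests in the cytoplasm with heat shock protein chaperones. Planar aromatic compounds from the diet, from gut bacteria and from tryptophan breakdown bind it, after which it enters the nucleus, pairs with ARNT and switches on CYP1A1, CYP1A2, CYP1B1, AHRR, TIPARP and, together with the oxidative stress factor NRF2, NQO1. In the small intestine CYP1A1 is a strongly inducible enzyme that oxidises these ligands and so limits their supply to the receptor.

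Levels are log2 signals relative to the 75th percentile of each array, so 0 is the level of that percentile. Between 39.35% and 87.67% of probes per array were well above background, with all values under 50% on slide 5, where both doses of day 4 and the 7.4-Gy groups of days 7 and 12 each had 1 array. The 28171 probes (64.6%) that were well above background throughout at least 1 group were tested. A probe was called when limma's adjusted p was below 0.05 and the change 2-fold or more. Of 12 enterocyte markers 8 were tested, and their summed level lay between 8.83 and 9.25 log2 in controls and between 7.59 and 9.14 log2 after irradiation. Of 3 tested markers of more distal small bowel, FABP6 and SLC10A2 were called higher in the 6.7-Gy day 4 group. The summed level of that list lay between 2.66 and 3.03 log2 in controls and between 2.24 and 6.07 log2 on day 4.

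CYP1A1, the inducible monooxygenase that breaks down AHR ligands, had the widest range of the members. Its brighter probe (A_01_P012198) was well above background on all 24 arrays. In controls it read 6.04, 5.66, 3.54 and 6.53 log2, a mean of 5.44 ± 1.32 (SD, n = 4). In the 6.7-Gy day 4 group it read -1.69, -1.91, -3.22 and -3.05 log2, a mean of -2.47 ± 0.78 (SD, n = 4). All 4 of these animals lay far below every control, a separation that 7.66% of tested probes showed. The difference of means was -7.91 log2, 240.3-fold.

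In the 7.4-Gy day 4 group the same probe read 6.22, -3.62, 2.47 and -2.72 log2, a mean of 0.59 ± 4.62 (SD, n = 4). Replicate 1 was as high as the controls, replicate 3 was in between, and replicates 2 and 4 were as low as the animals given 6.7 Gy, so the group overlapped the controls. The difference of means from control was -4.86 log2, and it ranged from -6.73 log2 without 7.4-Gy replicate 1 to -3.45 log2 without replicate 2.

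The 4 animals of the 7.4-Gy day 4 group did not divide in this way in 2 genes known to rise with p53 activity. GDF15, a secreted stress-response protein, read 3.97, 4.44, 3.96 and 3.96 log2 in replicates 1 to 4, against -0.49 to 0.59 log2 in controls. EDA2R, a receptor of the TNF receptor superfamily, read 1.25, 0.57, 1.19 and 0.87 log2 against -3.04 to -2.51 log2 in controls. The animal with control-like CYP1A1 (replicate 1) stood as far above the controls in both genes as the rest of its group did. The same animal stood apart in tissue markers, with FABP6 at 5.88 log2 against 3.12, -0.34 and 1.26 log2 in replicates 2 to 4. Its summed level of distal small bowel markers was 6.07 log2 against 3.21 to 3.95 log2 in the others, and that of fibroblast markers 7.32 log2 against 6.49 to 6.65 log2. In the 6.7-Gy day 4 group, where CYP1A1 was low in all 4 animals, FABP6 read 4.97, 4.44, 2.38 and -0.44 log2. In controls FABP6 lay between -2.70 and -1.25 log2. The part of these markers in the CYP1A1 levels was not tested.

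On day 7 CYP1A1 spread over several log2 units at either dose. At 6.7 Gy it read 1.78, 3.44, 5.64 and 0.62 log2, a mean of 2.87 ± 2.18 (SD, n = 4). At 7.4 Gy it read 6.17, 1.50, 4.09 and 2.70 log2, a mean of 3.61 ± 2.00 (SD, n = 4). At 6.7 Gy 1 animal lay within the control range and 3 below it, and at 7.4 Gy 2 lay within it and 2 below.

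On day 12 the doses did not overlap. At 6.7 Gy the readings were 5.34 and 3.81 log2, both within the control range. At 7.4 Gy they were 0.48 and -0.40 log2, both below every control, as for 9.5% of tested probes, and the difference of means was -5.40 log2. Both 7.4-Gy day 12 arrays were scanned on the second of 2 scan days and all 4 controls on the first. With scan day as a block in a model of all 24 arrays the difference from control was -5.52 log2, and with slide as a block it was -5.44 log2. Both 6.7-Gy day 12 arrays were scanned on the first scan day and lay on other slides than the 7.4-Gy pair. Dose on day 12 thus cannot be told apart from scan day or slide on these arrays. The doses also did not overlap in distal small bowel markers on day 12, whose summed level was 5.42 and 5.78 log2 at 6.7 Gy and 3.84 and 4.39 log2 at 7.4 Gy. Summed enterocyte, T cell, innate lymphoid and macrophage markers likewise lay lower at 7.4 Gy without overlap, and proliferation markers higher. Of all tested probes 19.9% lay lower at 7.4 Gy in this way. FABP6 read 5.29 and 5.00 log2 at 6.7 Gy, called higher than control (limma adjusted p = 0.00401), and 1.22 and 0.95 log2 at 7.4 Gy, and its part in the CYP1A1 levels was not tested.

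Ordered by group mean, CYP1A1 ran from control through 6.7 Gy day 12, 7.4 Gy day 7, 6.7 Gy day 7, 7.4 Gy day 4 and 7.4 Gy day 12 to 6.7 Gy day 4. Every group overlapped the next in this order except the last pair, in which both 7.4-Gy day 12 animals lay above all 6.7-Gy day 4 animals, as for 14.3% of tested probes. Over the 24 arrays the level spanned 10.15 log2, from a signal of 77.0 to one of 76743. A wider span was found for 7 of the 28171 tested probes, and the median span was 1.49 log2. CYP1A1 was chosen for its fall from control, and the span includes those arrays, so this rank is a description.

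**Figure D1:**
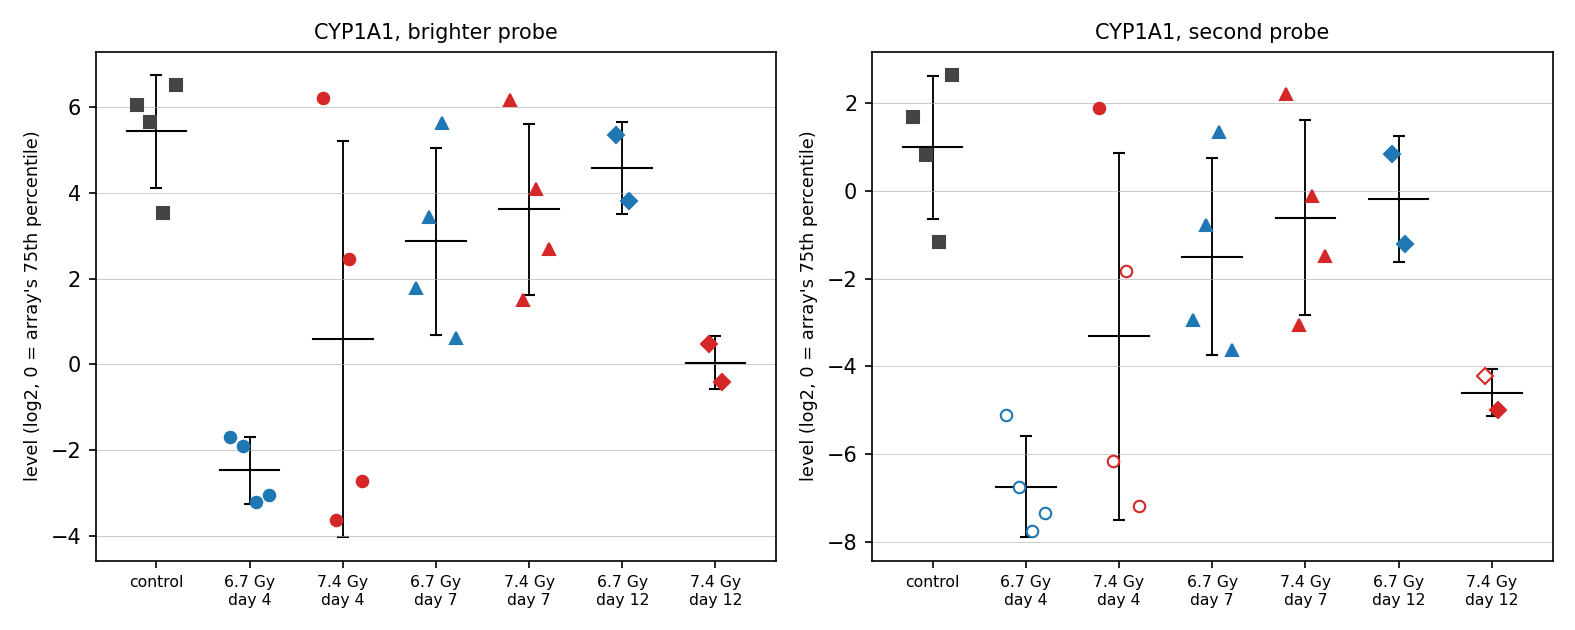
CYP1A1 level (log2, 0 = the array's 75th percentile) on each of 24 arrays by group, for the brighter and the second probe. Each symbol is 1 animal, lines are means with SD bars, and open symbols were not well above background. The 6.7-Gy day 4 animals sit between -3.22 and -1.69 log2 on the brighter probe, below all controls, and the 7.4-Gy day 4 animals span from -3.62 to 6.22 log2.

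The second CYP1A1 probe (A_01_P1671296) ranked the animals in nearly the same order, with r = 0.99 and rho = 0.98 against the first over 24 arrays. It read 1.70, 0.81, -1.17 and 2.65 log2 in controls and was never well above background in the 6.7-Gy day 4 group. The fall there is therefore a bound, at least 75.63-fold lower than control, against measured means of 1.00 and -6.74 log2. For the bound each of those arrays took its lowest signal well above background or the probe's own signal, whichever was higher. In the 7.4-Gy day 4 group this probe was well above background in replicate 1 alone. It read 1.89, -6.15, -1.82 and -7.19 log2 there, so replicate 3, which was on slide 5, again lay in between.

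CYP1A1 was tested in the 6 contrasts whose means use neither the controls nor the 6.7-Gy day 4 arrays, and none passed. Their error was the residual spread of all 24 arrays in 1 model, those arrays included, and the 7.4-Gy day 4 group had the largest SD among them (4.62 log2). Between doses (7.4 minus 6.7 Gy) the difference was 0.74 log2 on day 7, with a 95% interval from -2.53 to 4.02 log2 (limma adjusted p = 0.943). On day 12 it was -4.54 log2, with an interval from -9.17 to 0.09 log2 (limma adjusted p = 0.996), and a like separation held for 19.9% of tested probes in these 2 groups of 2. On those 4 arrays alone the two-group test of the study's methods gave an unadjusted p of 0.0356 and an adjusted p of 0.953. Dose coincided with scan day and slide on those arrays. Intervals of this width do not show that the doses acted alike. Within the 7.4-Gy animals, day 7 minus day 4 was 3.03 log2 (limma adjusted p = 0.292). Day 12 minus day 7 was -3.58 log2 (limma adjusted p = 0.550), without overlap, as for 7.82% of tested probes. Day 12 minus day 4 was -0.55 log2 (limma adjusted p = 0.916). Within the 6.7-Gy animals, day 12 minus day 7 was 1.71 log2 (limma adjusted p = 0.939).

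Controls and day 4 animals shared slides, so single pairs could be read within a slide. On slides 1 and 2 a 6.7-Gy day 4 animal read -3.22 and -3.05 log2 beside controls at 6.04 and 5.66 log2. On slides 3 and 4 a 7.4-Gy day 4 animal read 6.22 and -3.62 log2 beside controls at 3.54 and 6.53 log2. The irradiated animal was the lower of the pair on slides 1, 2 and 4 and the higher on slide 3.

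CYP1B1, the family member that oxidises polycyclic hydrocarbons and oestradiol, had higher means than control on day 4, though neither difference was called. Its probe (A_01_P1682496) read -0.76, 0.14, -0.63 and 0.39 log2 in controls. On day 4 it read 0.38, 1.11, 1.37 and 0.77 log2 at 6.7 Gy and 1.94, 0.59, 1.45 and 0.82 log2 at 7.4 Gy. All animals given 7.4 Gy lay above all controls, as for 7.28% of tested probes, and at 6.7 Gy the lowest animal lay just below the highest control.

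The day 4 difference of CYP1B1 from control was 1.12 log2 ± 0.31 (SE) at 6.7 Gy (limma adjusted p = 0.0832) and 1.42 log2 ± 0.36 (SE) at 7.4 Gy (limma adjusted p = 0.0567). The 7.4-Gy value stood close to the threshold, since limma on all 24 arrays in 1 model called it (adjusted p = 0.0281), and over all alternatives the limma adjusted p ran from 0.0230 to 0.412. In that comparison 3 of 4 tested fibroblast markers (COL3A1, DCN and LUM) were called higher, by 1.12 to 1.29 log2. The summed fibroblast level lay between 4.91 and 6.00 log2 in controls, between 6.21 and 6.39 log2 in the 6.7-Gy day 4 group and between 6.49 and 7.32 log2 in the 7.4-Gy day 4 group, and its part in the CYP1B1 level was not tested.

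By day 7 CYP1B1 was lower again. It read -1.19, -1.14, 0.25 and -0.13 log2 at 6.7 Gy and 0.50, -0.12, -0.58 and 0.63 log2 at 7.4 Gy. At 6.7 Gy every day 7 animal lay below every day 4 animal, as for 5.45% of tested probes. The fall from day 4 to day 7 was 1.46 log2 ± 0.37 (SE) at 6.7 Gy and was called (limma adjusted p = 0.0315). At 7.4 Gy the difference was -1.09 log2 and was not called (limma adjusted p = 0.0949). The call at 6.7 Gy was lost without any 1 of day 4 replicates 2, 3 and 4 or day 7 replicates 1 and 2, where the difference lay between -1.50 and -1.24 log2 (limma adjusted p from 0.0557 to 0.113). It was also lost without the filter on dim probes (limma adjusted p = 0.0677) and when limma used only the 8 arrays compared (adjusted p = 0.0779). The summed fibroblast level was also lower on day 7 at 6.7 Gy, between 4.51 and 5.71 log2.

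On day 12 CYP1B1 read 0.57 and 0.34 log2 at 6.7 Gy, above all 4 day 7 animals, as for 10.6% of tested probes. At 7.4 Gy it read -0.35 and 0.13 log2, below all 4 day 4 animals, as for 12.7%. Neither difference was called, at 1.01 log2 (limma adjusted p = 0.636) and -1.31 log2 (limma adjusted p = 0.109).

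NQO1, a quinone reductase under both AHR and NRF2, was lowest on day 4 and higher from day 7. Its brightest probe (A_01_P1713341) read 1.84, 2.15, 0.71 and 1.74 log2 in controls. On day 4 it read 1.36, 1.10, 0.42 and 0.63 log2 at 6.7 Gy and 0.77, 0.48, 0.63 and -0.01 log2 at 7.4 Gy. Control replicate 3 was as low as the irradiated animals, and the other 3 controls lay above all 8.

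On day 7 NQO1 read 3.05, 2.85, 2.42 and 2.42 log2 at 6.7 Gy, all above every control, as for 3.99% of tested probes. At 7.4 Gy it read 1.86, 1.71, 2.54 and 1.99 log2, which overlapped the controls. On day 12 it read 2.32 and 2.08 log2 at 6.7 Gy, below all 4 day 7 animals of that dose (as for 8.05% of tested probes). The day 12 readings at 7.4 Gy were 2.18 and 2.50 log2, above every control (8.51%).

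At each dose every animal of day 7 and of day 12 lay above every day 4 animal in NQO1. Such a separation held for 7.21% of tested probes on day 7 and 19.2% on day 12 at 6.7 Gy, and for 5.83% and 15.8% at 7.4 Gy. The rise from day 4 to day 7 was 1.81 log2 ± 0.28 (SE) at 6.7 Gy, 3.50-fold, and was called (limma adjusted p = 0.00242). At 7.4 Gy it was 1.55 log2 ± 0.28 (SE), 2.94-fold, and was called (limma adjusted p = 0.00526), though not when limma used only the 8 arrays compared. All 3 NQO1 probes were called in both contrasts, and they followed one another over the 24 arrays with r from 0.91 to 0.98.

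Cell type markers moved in the same contrasts. From day 4 to day 7 at 7.4 Gy 4 of 5 tested proliferation markers (TOP2A, CCNB1, CDK1 and AURKA), 1 of 4 enteroendocrine markers (GCG) and 1 of 5 proximal small bowel markers (GATA4) were called higher, and 2 of 8 enterocyte markers (APOB and ANPEP), 1 of 4 endothelial markers (KDR) and 1 of 2 macrophage markers (CSF1R) lower. The summed proliferation level lay between 2.20 and 3.64 log2 on day 4 and between 3.55 and 4.33 log2 on day 7. At 6.7 Gy none of the 5 proliferation markers was called, their summed level lay between 2.63 and 3.54 log2 on day 4 and between 3.16 and 4.06 log2 on day 7, and 1 of 8 enterocyte markers (RBP2), 1 of 4 enteroendocrine markers (GCG) and 1 of 3 distal small bowel markers (SLC51B) were called higher. The other 2 distal markers differed by -2.87 log2 (FABP6) and -2.11 log2 (SLC10A2) there without a call, so the list median was -2.11 log2, and that of the enteroendocrine list was -0.09 log2. The median of the proximal list at 7.4 Gy was -0.25 log2, since 3 of its 5 markers differed the opposite way to GATA4. The part of these in the NQO1 level was not tested.

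From day 4 to day 12 NQO1 rose at 7.4 Gy by 1.87 log2 ± 0.34 (SE), 3.65-fold (limma adjusted p = 0.0102). Without day 12 replicate 1, which leaves 1 animal assumed to vary like the other groups, the value was 2.03 log2 and not called (limma adjusted p = 0.105). The call was also lost with slide as a fixed block, at 1.76 log2 (limma adjusted p = 0.0518), and without the 4 arrays of slide 5, at 2.08 log2 (limma adjusted p = 0.143), and when limma used only the 6 arrays compared (adjusted p = 0.107). From day 4 to day 12 at 7.4 Gy 2 of 4 endothelial markers (VWF and KDR) and 2 of 2 macrophage markers (CD14 and CSF1R) were called lower. At 6.7 Gy the day 12 difference was 1.32 log2 (limma adjusted p = 0.0584), and a second probe (A_01_P1713351) was called there at 1.46 log2 (limma adjusted p = 0.0445). At that dose the summed distal small bowel level lay between 2.24 and 5.24 log2 on day 4 and between 5.42 and 5.78 log2 on day 12. The summed fibroblast level fell, from 6.21 to 6.39 log2 on day 4 to 4.97 to 5.69 log2 on day 12. The part of these markers in the NQO1 level was not tested.

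NQO1 was not called against control in any group. The difference was -0.73 log2 (limma adjusted p = 0.245) in the 6.7-Gy day 4 group and -1.14 log2 (limma adjusted p = 0.0702) in the 7.4-Gy day 4 group. The 7.4-Gy difference was called without control replicate 3, at -1.44 log2 (limma adjusted p = 0.0316), and by limma on all 24 arrays in 1 model (adjusted p = 0.0197). In the 6.7-Gy day 7 group the difference was 1.08 log2 (limma adjusted p = 0.237).

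AHR, the receptor itself, spanned 1.31 log2 over the 24 arrays, against a median span of 1.49 log2 over all tested probes. Its probe (A_01_P1761726) read -1.91, -1.88, -1.87 and -2.41 log2 in controls, and between -2.95 and -1.64 log2 over all 24 arrays. On day 4 it read -2.95, -2.62, -1.94 and -1.86 log2 at 6.7 Gy and -1.76, -1.95, -1.64 and -1.97 log2 at 7.4 Gy. Each irradiated group overlapped the controls. The difference from control lay between -0.33 and 0.19 log2 in the 6 groups (limma adjusted p from 0.515 to 0.967). In the 6.7-Gy day 4 group, where CYP1A1 was lowest, its 95% interval ran from -0.93 to 0.28 log2. The probe was not well above background on 2 arrays of slide 5.

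TIPARP, a mono-ADP-ribosyltransferase that AHR induces and that represses AHR in turn, was dim. Its brightest probe (A_01_P008970) read -2.88, -3.12, -2.86 and -3.24 log2 in controls and was well above background on 19 arrays. On day 4 it read -3.64, -3.39, -3.13 and -3.27 log2 at 6.7 Gy and -3.34, -3.32, -3.66 and -3.73 log2 at 7.4 Gy. On day 7 it lay between -3.49 and -3.26 log2 at 6.7 Gy and between -3.46 and -3.16 log2 at 7.4 Gy. All animals of 7.4 Gy day 4 and of 6.7 Gy day 7 lay below all controls, as for 10.1% and 3.16% of tested probes, although the lowest control (replicate 4) was not well above background. On a second probe (A_01_P1758841) both groups overlapped the controls.

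The TIPARP means were below control in each of the 6 groups, and none was called. The difference largest in size was -0.49 log2 ± 0.16 (SE) in the 7.4-Gy day 4 group, with a 95% interval from -0.85 to -0.12 log2 (limma adjusted p = 0.111). The second probe gave -0.74 log2 there (limma adjusted p = 0.0912). The last probe (A_01_P1792311) was well above background on 1 of 24 arrays and was not tested.

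**Figure D2:**
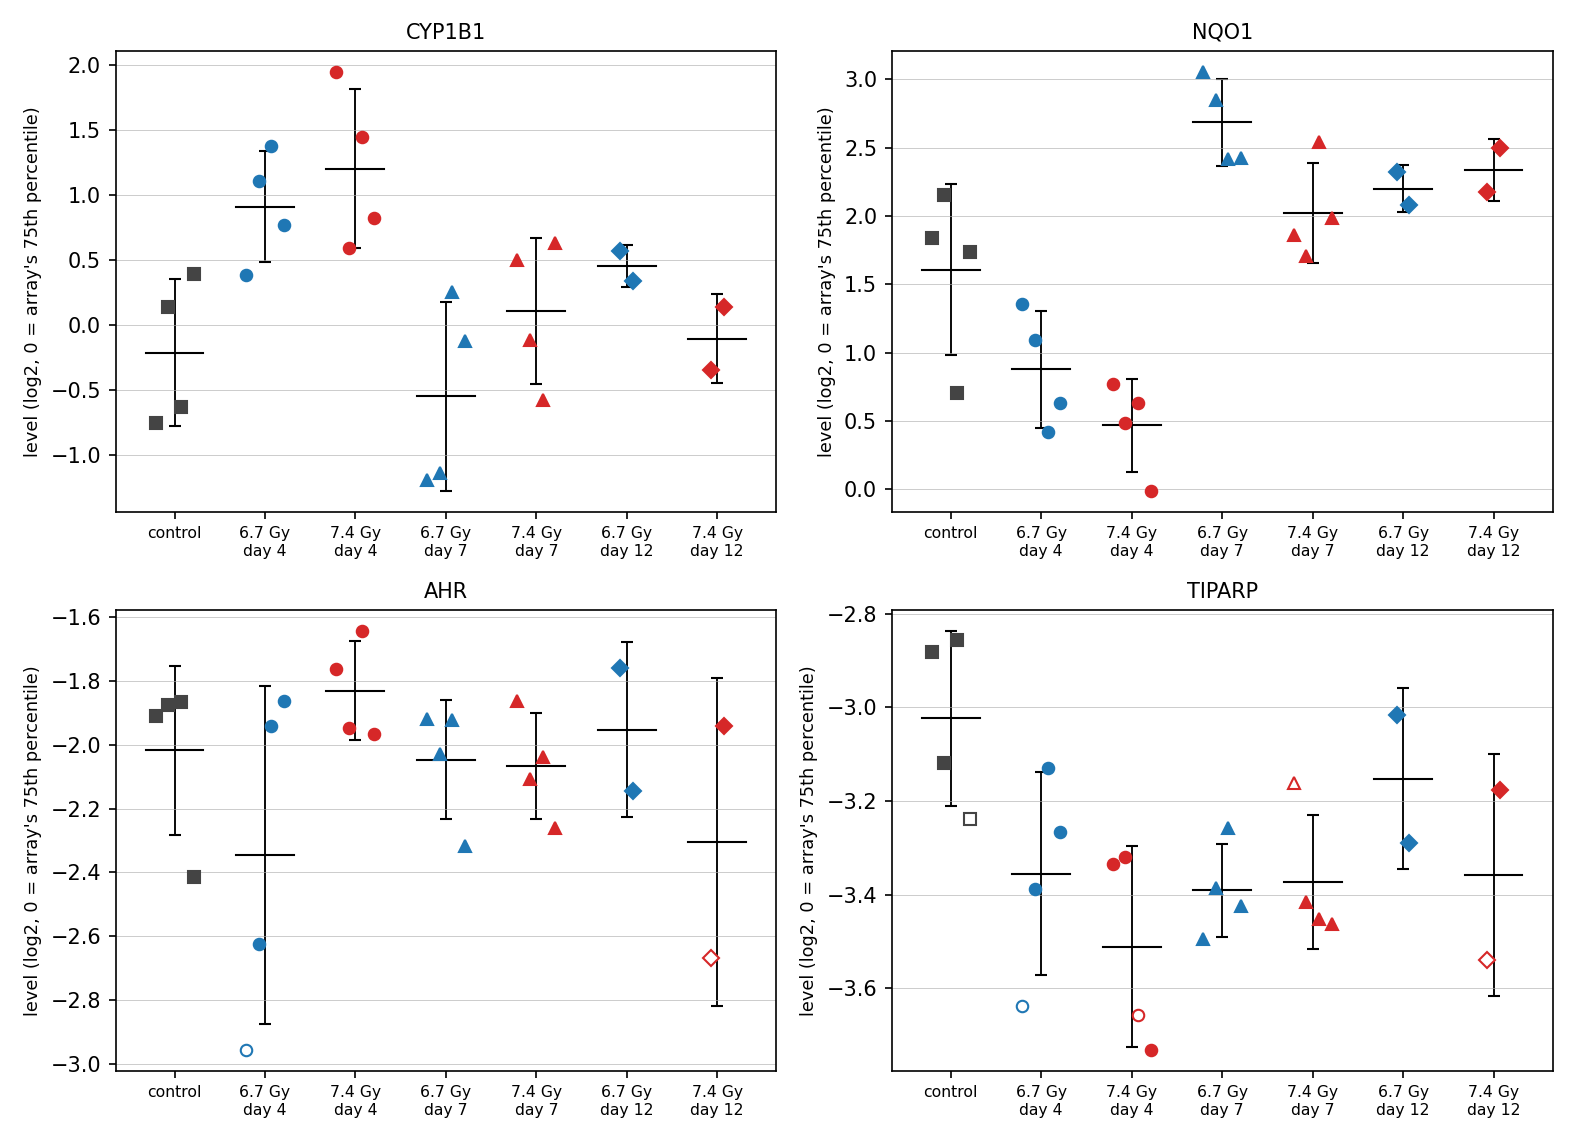
Levels (log2, 0 = the array's 75th percentile) of CYP1B1, NQO1, AHR and TIPARP on each array by group, with symbols, lines and bars as for CYP1A1 and a separate scale for each gene. CYP1B1 is highest and NQO1 lowest on day 4, NQO1 lies above its day 4 levels on days 7 and 12, and AHR and TIPARP stay within 1.31 and 0.88 log2.

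Over CYP1B1, AHR, TIPARP and NQO1, limma called no member against control in any of the 24 tests (4 genes by 6 groups), and 6 of them had an unadjusted p below 0.05. The share of all tested probes called was 1.98% and 2.6% on day 4 (6.7 and 7.4 Gy), 0.0639% and 0.288% on day 7, and 0.0071% and 0.00355% on day 12. The two-group test of the study's methods called none of the 24 after correction. Between doses limma called 0 of 14 member tests, 2 had an unadjusted p below 0.05, and the share called over all probes was 0% on each day.

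Between days limma called 4 of 28 member tests, 3 for NQO1 and 1 for CYP1B1, and 8 had an unadjusted p below 0.05. The two-group test of the study's methods called none of the 28 after correction, with adjusted p from 0.0723 to 0.168 for those 4. At 6.7 Gy the share of all probes called was 1.55% for day 7 minus day 4 and 0.951% for day 12 minus day 4. At 7.4 Gy these shares were 1.64% and 2.42%. For day 12 minus day 7, where no member was called, they were 0.00355% and 0.0248%.

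The proteins that hold, escort and pair with the receptor did not pass in either direction. Of 9 listed genes of the receptor complex and ARNT partners, 7 were tested and none was called in the 6 comparisons with control. Their median difference on day 4 was 0.11 log2 at 6.7 Gy and 0.14 log2 at 7.4 Gy, against -0.06 and -0.08 log2 over all tested probes. Their summed level lay between 6.66 and 7.05 log2 in controls and, higher, between 7.20 and 7.48 log2 in the 6.7-Gy day 4 group. In the 7.4-Gy day 4 group it lay between 6.98 and 7.19 log2, overlapping the controls. Of 8 enzymes of tryptophan and kynurenine metabolism, which make and degrade AHR ligands, 2 were tested and neither was called against control.

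Among 13 other AHR target genes 6 were tested, and 1 was called, lower, in the 6.7-Gy day 4 group. The median difference of the 6 was -0.67 log2 there, -0.61 log2 in the 7.4-Gy day 4 group and between -0.20 and -0.13 log2 in the later groups. GSTA1 (A_01_P1744856), a glutathione transferase of enterocytes, was the gene called. It ranged from 6.30 to 6.83 log2 in controls and from 3.07 to 4.27 log2 in the 6.7-Gy day 4 group, without overlap, as for 7.66% of tested probes. The fall was 2.75 log2 ± 0.27 (SE; limma adjusted p = 0.0033).

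In the 7.4-Gy day 4 group GSTA1 read 1.26, 3.97, 5.09 and 4.56 log2, also wholly below the controls (10.1% of tested probes), and the difference of -2.85 log2 ± 0.72 (SE) was not called (limma adjusted p = 0.0551). From day 4 to day 7 it rose at 7.4 Gy by 2.85 log2 ± 0.62 (SE), which was called (limma adjusted p = 0.0139). Without the 4 arrays of slide 5 this rise was 3.21 log2 and not called (limma adjusted p = 0.06), and without day 4 replicate 1 it was 2.03 log2 and called (limma adjusted p = 0.0389). The call was lost when limma used only the 8 arrays compared (adjusted p = 0.14) and by the two-group test of the study's methods (adjusted p = 0.244). The animal lowest in GSTA1 was replicate 1, the one with control-like CYP1A1. Near-identical alpha-class genes could share this probe, so which member of the family it measured is uncertain.

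Of 10 NRF2 target genes 8 were tested, 2 were called lower in the 6.7-Gy day 4 group and 1 in the 7.4-Gy day 4 group, and none was called on a later day or higher. The median difference on day 4 was -0.42 log2 at 6.7 Gy and -0.31 log2 at 7.4 Gy. HMOX1 (A_01_P010451), which breaks down haem, ranged from 3.95 to 4.77 log2 in controls, from 2.89 to 3.71 log2 at 6.7 Gy and from 3.07 to 3.51 log2 at 7.4 Gy. The falls were 1.19 log2 ± 0.24 (SE; limma adjusted p = 0.0322) and 1.33 log2 ± 0.21 (SE; limma adjusted p = 0.0156). ME1 (A_01_P1788896), a cytosolic malic enzyme that supplies NADPH, fell at 6.7 Gy by 1.02 log2 ± 0.19 (SE; limma adjusted p = 0.0284).

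The HMOX1 and ME1 calls at 6.7 Gy were close to the threshold. HMOX1 lost its call there without any 1 array of either group other than control replicate 2, with values between -1.32 and -1.05 log2. ME1 lost its call without control replicates 1 or 3 or 6.7-Gy replicates 2, 3 or 4, with values between -1.08 and -0.86 log2. All controls and 2 of the 4 arrays of each day 4 group were scanned on the first scan day. With scan day as a block HMOX1 was not called at 6.7 Gy (-1.39 log2, limma adjusted p = 0.0679) or at 7.4 Gy (-1.22 log2, limma adjusted p = 0.0769), nor ME1 at 6.7 Gy (-0.96 log2, limma adjusted p = 0.111). GSTA1 at 6.7 Gy was called with scan day as a block (-3.12 log2, limma adjusted p = 0.00676) and not with slide as a fixed block (-3.12 log2, limma adjusted p = 0.113), which ended all 4 calls against control in these lists. HMOX1 was then -1.21 log2 at 6.7 Gy and -1.40 log2 at 7.4 Gy, and ME1 -1.03 log2. With that block in a model of all 24 arrays, added after the data were seen, GSTA1 (-3.52 log2) and HMOX1 (-1.23 and -1.29 log2) were called (limma adjusted p from 0.00722 to 0.0417). ME1 was -0.95 log2 there and not called.

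Cell type markers also differed from control on day 4. Of 8 tested enterocyte markers 3 (VIL1, RBP2 and TREH) were called lower in the 6.7-Gy day 4 group and 1 (RBP2) in the 7.4-Gy day 4 group, with list medians of -0.69 and -0.53 log2. The summed enterocyte level lay between 8.32 and 8.69 log2 and between 8.14 and 8.88 log2 in these groups. Of 2 tested erythroid markers HBB, the beta chain of haemoglobin, was called lower, by 6.92 log2 at 6.7 Gy (limma adjusted p = 0.00142) and by 6.38 log2 at 7.4 Gy (limma adjusted p = 0.0036). The summed erythroid level changed far less than HBB, and lay between 7.21 and 8.01 log2 in controls. On day 4 it lay between 6.79 and 7.44 log2 at 6.7 Gy and between 6.67 and 7.21 log2 at 7.4 Gy. In both day 4 groups 1 of 3 B and plasma cell markers (MZB1) and 1 of 5 proximal small bowel markers (GATA4) were called lower. The median of the proximal list was 0.13 log2 at 6.7 Gy and 0.30 log2 at 7.4 Gy, above control, with 3 of its 5 markers differing the opposite way to GATA4. At 7.4 Gy 1 of 3 crypt base markers (OLFM4) and 1 of 2 macrophage markers (CD14) were called higher. The part of these lists in the CYP1A1, GSTA1, HMOX1 and ME1 levels was not tested.

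**Figure D3:**
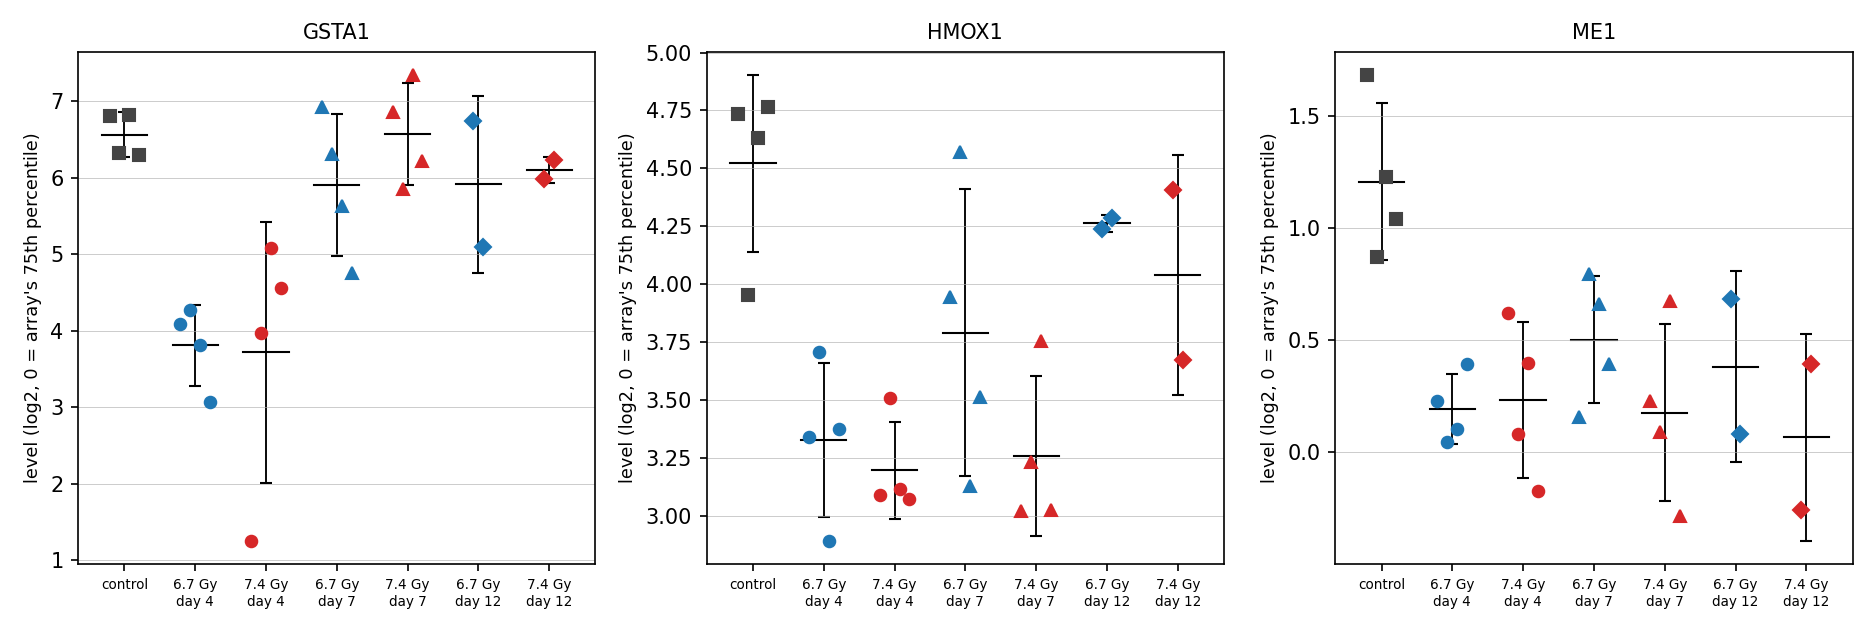
Levels (log2, 0 = the array's 75th percentile) of GSTA1, HMOX1 and ME1 on each array by group, with symbols, lines and bars as for CYP1A1 and a separate scale for each gene. All 8 day 4 animals lie below all 4 controls in each gene, as for 7.66% (6.7 Gy) and 10.1% (7.4 Gy) of tested probes, and GSTA1 lies between 4.76 and 7.35 log2 on day 7, with 4 of the 8 animals still below every control.

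Over the 24 arrays the other members compared with CYP1A1 with r = 0.48 and rho = 0.37 for NQO1, 0.41 and 0.40 for TIPARP, 0.29 and 0.32 for AHR, and -0.22 and -0.22 for CYP1B1. On deviations from group means r was 0.40 for NQO1, 0.13 for TIPARP, 0.11 for AHR and 0.50 for CYP1B1, whose sign thus turned. Among 11842 genes the one most like CYP1A1 was EDC3 (A_01_P001611), an enhancer of mRNA decapping, with r = 0.87 and rho = 0.92. These values are descriptions over arrays that share slides and groups. The values that follow use the same arrays that chose EDC3. Without the 2 arrays farthest from the CYP1A1 median r was 0.87, within the 16 arrays of the first scan day it was 0.85 (rho = 0.95), within the 8 of the second it was 0.86 (rho = 0.64), and on deviations from group means it was 0.81.

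EDC3, chosen for its likeness to CYP1A1 on these arrays, read 2.07, 0.63, 1.15 and 0.76 log2 in the 7.4-Gy day 4 group and 0.58 to 0.81 log2 in the 6.7-Gy day 4 group. In controls it read 2.42, 2.52, 1.06 and 2.77 log2, and the control lowest in EDC3 was also the one lowest in CYP1A1.

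EDC3 and CYP1A1 are neighbours in the T2T-MMU8v2.0 gene order, with no other protein-coding gene between them. The nearest further genes with a tested probe followed CYP1A1 less closely. CLK3, on the far side of EDC3, had r = 0.17 and 0.30 for its 2 probes, and CSK and SCAMP2, on the other side of CYP1A1, had r = 0.15 and 0.40. EDC3 had 1 probe, and where in either gene the probes lie was not examined, since no probe sequence was used here.

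After EDC3 the likeness dropped, to r = 0.74 for LOC713877, 0.72 for LOC694640, 0.72 for LOC717104 and 0.71 for SLC25A46, a protein of the mitochondrial carrier family. The genes most opposed to CYP1A1 were CCL5, a T-cell chemokine (r = -0.76, rho = -0.78), CD48, a lymphocyte surface protein (r = -0.74, rho = -0.72), and LOC709745 (r = -0.73, rho = -0.69). On deviations from group means the next after EDC3 were C2CD2L with r = 0.75 and LOC694656 with r = 0.71.

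**Figure D4:**
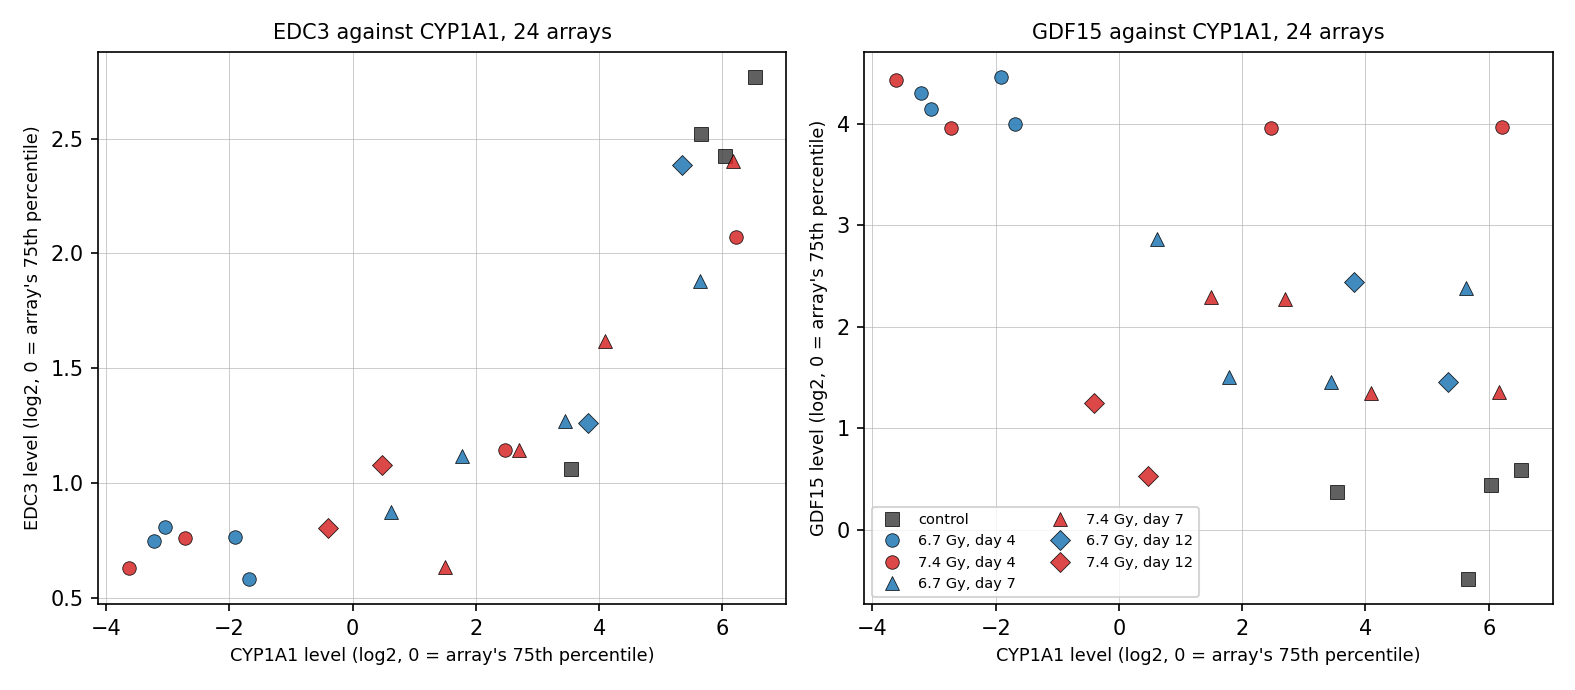
EDC3 level (left) and GDF15 level (right) against CYP1A1 level on 24 arrays (all log2, 0 = the array's 75th percentile), with 1 symbol per animal, shape by day and colour by dose. EDC3 rises with CYP1A1 (r = 0.87), whereas the 8 day 4 animals have GDF15 between 3.96 and 4.47 log2 at every CYP1A1 level.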

How the data were processed

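RNA of 24 jejunum samples (7 groups) was labelled with Cy3 and hybridised to Agilent rhesus arrays. The authors deposited scanner intensity values from Feature Extraction 11.0.1.1 and a table of log2 values scaled to the 75th percentile of each array and centred on the median of each probe. Processed signals (spots of a probe averaged, non-uniform spots left out where another remained) were put on log2 here, minus the array's 75th percentile. After the same centring 99.92% of the deposited log2 values lay within 0.01 of these. Each irradiated group was compared with control in limma 3.58.1 (R 4.3.3) without the other groups, and doses and days in 1 model of all 24 arrays, with Benjamini-Hochberg adjustment over the 28171 tested probes. No probe value was saturated. The number of arrays limits the precision. Fits were tested on simulated data.

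Groups followed titles and characteristics, which give day 12 where the treatment note has another last day. The brightest probe stood for a gene. Pathway genes were named when called against control, as were the 5 most and 3 least CYP1A1-like genes by r, and the 3 most like on deviations from group means. The members and lists were chosen with earlier results of these data known. Alternatives were normexp background correction (offset 50, on the median signal, as the columns used hold no mean signal), other scalings and filters, blocks for slide, scan day, position and replicate number, other tests and leaving out arrays. A common floor, slide blocks over all arrays and leaving out slide 5 were added after the data were seen. CYP1A2, AHRR and ARNT were not analysed here.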

Additional observations from a re-analysis of the deposited data

Results flagged for a closer look

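Over the 5 members and the 5 groups of 4 animals, 25 sets of 4 readings were examined for a sample far from the others, and 2 stood out, where chance flags about 1 in 20 such sets. AHR read -2.41 log2 in control replicate 4, with the other controls between -1.91 and -1.87 log2. TIPARP read -3.16 log2 in replicate 1 of 7.4 Gy on day 7, with the others between -3.46 and -3.42 log2, and that reading was not well above background.

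Among the members and the pathway genes called against control, levels differed between days at 1 dose in 5 cases, by a test of the day contrast itself. NQO1 was higher on day 7 than on day 4 by 1.81 log2 after 6.7 Gy and by 1.55 log2 after 7.4 Gy, and higher on day 12 than on day 4 by 1.87 log2 after 7.4 Gy. CYP1B1 on day 7 minus day 4 after 6.7 Gy was -1.46 log2. GSTA1 on day 7 minus day 4 after 7.4 Gy was 2.85 log2. Their limma adjusted p-values were 0.00242, 0.00526, 0.0102, 0.0315 and 0.0139 in this order.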

How the results depend on the processing

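The number of arrays, and on slide 5 the signal over background, limit these results. The CYP1A1 difference from control in the 6.7-Gy day 4 group kept its direction, between -8.99 and -7.13 log2 over the alternatives and between -8.54 and -7.55 log2 without single arrays, and that in the 7.4-Gy day 4 group lay between -5.48 and -3.74 log2 and between -6.73 and -3.45 log2. Member calls between doses were 0 under all alternatives. The cause of the changes that follow was not tested.

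Member calls against control, 0 as reported, became 1 with normexp or with a 75th percentile taken only over probes detected everywhere, 3 with only probes detected on all 24 arrays, 2 with trend and robust variance, 2 with all 24 arrays in 1 model and 2 with slide as a random block in that model. Leaving out single arrays gave 0 to 1. Member calls between days, 4 as reported, became 0 with position as a block, where only 2 of 6 comparisons could be estimated, 0 with the methods' t-test and 1 on the arrays of the compared groups alone, and lay between 3 and 5 without single arrays. Pathway gene calls against control, 4 as reported, became 1 without a filter, 8 with only probes detected on all 24 arrays, 0 with slide as a fixed block, 7 with slide as a random block, 1 with position as a block, 2 with the methods' t-test, 7 with trend and robust variance, 8 with all 24 arrays in 1 model, 7 with slide as a random block in that model and 2 with a common floor, chosen after seeing the data. Leaving out single arrays gave 2 to 5, with 2 without control replicates 1 or 3 or 6.7-Gy day 4 replicates 2, 3 or 4.

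The replicate block gave 1 pathway gene call and left the member calls at 0 against control and 4 between days. Correlations of the deviations of same-numbered samples lay between -0.17 and 0.33 over 46 pairs, 9 of them over 0.1, and in 16 of the 46 the sample matched its own number best. Between control and 6.7 Gy day 7, whose same-numbered arrays share slides 1 to 4, they were 0.16, 0.24, 0.095 and 0.15, and all 4 samples matched their own number best, as a hint from the data. In no comparison with 3 or more pairs was every pair over 0.1, so the numbers were not taken as pairs. Some uncalled differences from control changed sign. AHR on day 12 at 6.7 Gy (0.06 log2) became -0.052 with normexp and -0.059 with the replicate block, AHR on day 4 at 6.7 Gy (-0.33 log2) became 0.11 with scan day as a block, and AHR on day 12 at 7.4 Gy (-0.29 log2) became 0.075 without slide 5. Without single arrays AHR lay between -0.16 and 0.060 log2 (6.7 Gy day 7), -0.18 and 0.016 (7.4 Gy day 7), -0.13 and 0.26 (6.7 Gy day 12) and -0.65 and 0.075 (7.4 Gy day 12), TIPARP between -0.27 and 0.0075 (6.7 Gy day 12) and CYP1B1 between -0.13 and 0.35 (7.4 Gy day 12).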

Other observations

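One probe without a symbol in the table (A_01_P1686016) matched CYP1A2 through its accession, a gene that the T2T-MMU8v2.0 annotation lists as a transcribed pseudogene. It was not well above background on any of the 24 arrays. Beyond the comparisons with control, UGT1A1, a glucuronosyltransferase and AHR target, was called higher on day 7 than on day 4 after 6.7 Gy, by 1.20 log2 ± 0.29 (SE; limma adjusted p = 0.0257). IDO1, which opens the tryptophan ring on the way to kynurenine, was called lower on day 7 than on day 4 after 7.4 Gy, with a difference of -1.12 log2 ± 0.31 (SE; limma adjusted p = 0.0429). Both were chosen after their values were seen.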
